A study of Mus musculus with 8 samples.

Results

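The native Nr5a2 and native Sox2 libraries are compared here, the pair of native libraries whose peak lists were least alike. Of the 661009 peaks called in 8 libraries, 108030 were in native Nr5a2 and 58162 in native Sox2, 166192 together. Binding was mapped by CUT&Tag, in which an antibody directs the transposase Tn5 to its target so that nearby DNA is cut, tagged and sequenced. The antibody was against Flag, the tag carried by the delivered factor. The cells were mouse embryonic fibroblasts at day 3 of reprogramming, and the other 6 libraries hold native Nanog, native Oct4 and fusions of all 4 factors with BiD, a domain of SS18 that binds the chromatin remodeler BRG1. Neither Nr5a2 nor Sox2 as compared here carries BiD. Per the study's methods, the fibroblasts came from embryos of OG2 males crossed with 129 females, were of either sex, and received the factors by pMXs retrovirus before culture in iCD3 medium. The titles name 1 factor each and do not say which other factors the cells received. There was 1 library per factor, so no difference below has a replicate spread or a test, and intervals are exact 95% intervals over peaks that cover counting error only. The files hold peaks and no transcript levels, so the identity of the fibroblasts could not be checked against marker expression.

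NR5A2 is an orphan nuclear receptor that binds as a monomer to an extended half-site, and it is known for bile acid and cholesterol metabolism in liver, steroid synthesis in the ovary and the upkeep of pluripotency. SOX2 is an HMG-box protein that bends DNA in the minor groove and is known from pluripotent cells and neural progenitors. In fibroblasts, many open enhancers carry sites for AP-1, TEAD and RUNX proteins, which are not among the delivered factors.

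Peaks of both lists were merged wherever they overlapped by at least 1 bp, and each merged region was called shared, Nr5a2 only or Sox2 only. To show what the summits of each class look like, the genome was read from 50 bp before to 50 bp after the summit in the 4 highest-ranked regions of each class that hold a match to the NR5A, SOX or AP-1 consensus. All are plus-strand sequences of mm10, taken from the RefSeq copy of GRCm38.p6, and capitals mark the matches, which were searched on both strands. The NR5A consensus was TCAAGGTCA, TCAAGGCCA, CCAAGGTCA or CCAAGGCCA, the SOX consensus CCATTGTT, and the AP-1 consensus TGACTCA or TGAGTCA. In the Nr5a2 only class, 3 of the 4 held AP-1 and 1 held NR5A.
Nr5a2 only, Ppm1h promoter, chr10:122895572-122895672: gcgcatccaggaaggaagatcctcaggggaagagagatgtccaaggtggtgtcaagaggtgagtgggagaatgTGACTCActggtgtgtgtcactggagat
Nr5a2 only, Gm29152 promoter, chr1:64649891-64649991: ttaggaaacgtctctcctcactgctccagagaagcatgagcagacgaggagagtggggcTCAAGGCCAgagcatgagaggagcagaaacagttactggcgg
Nr5a2 only, Nr0b2 promoter, chr4:133553066-133553166: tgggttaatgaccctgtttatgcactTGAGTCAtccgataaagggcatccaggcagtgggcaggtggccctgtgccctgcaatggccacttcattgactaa
Nr5a2 only, intergenic, Hs1bp3 side, chr12:8358639-8358739: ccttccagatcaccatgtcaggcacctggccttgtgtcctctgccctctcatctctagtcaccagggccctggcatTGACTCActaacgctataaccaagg
In the Sox2 only class, 2 held the SOX consensus and 2 held AP-1.
Sox2 only, intergenic, Fam98a side, chr17:75937079-75937179: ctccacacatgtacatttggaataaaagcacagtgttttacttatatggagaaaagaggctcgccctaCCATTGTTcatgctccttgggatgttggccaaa
Sox2 only, Kif1b intron, chr4:149255292-149255392: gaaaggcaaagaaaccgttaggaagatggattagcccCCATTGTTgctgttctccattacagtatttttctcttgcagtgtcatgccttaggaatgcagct
Sox2 only, Ghr intron, chr15:3389154-3389254: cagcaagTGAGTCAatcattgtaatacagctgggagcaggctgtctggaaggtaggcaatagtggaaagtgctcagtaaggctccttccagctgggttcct
Sox2 only, AC100263.1 intron, Rorb side, chr19:19246922-19247022: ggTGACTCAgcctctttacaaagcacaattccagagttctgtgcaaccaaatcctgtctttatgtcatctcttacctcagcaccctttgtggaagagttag
In the shared class, shown at the Nr5a2 summit, all 4 held AP-1, and the one on the Tex13c3 side held an NR5A match on the minus strand as well. In that last sequence 76 bases are marked as repeats in the assembly.
shared, Scrn1 intron, chr6:54540364-54540464: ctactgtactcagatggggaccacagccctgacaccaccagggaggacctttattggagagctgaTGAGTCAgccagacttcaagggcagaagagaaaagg
shared, intergenic, Chrna9 side, chr5:65909015-65909115: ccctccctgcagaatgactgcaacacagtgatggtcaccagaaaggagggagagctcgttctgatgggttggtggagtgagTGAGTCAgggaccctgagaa
shared, Gm36640 intron, chr6:135333067-135333167: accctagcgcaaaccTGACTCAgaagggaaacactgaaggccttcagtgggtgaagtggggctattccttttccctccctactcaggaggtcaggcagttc
shared, intergenic, Tex13c3 side, chrX:19264444-19264544: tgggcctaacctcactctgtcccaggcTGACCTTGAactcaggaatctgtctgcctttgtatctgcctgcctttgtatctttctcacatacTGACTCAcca
The first of these regions lay 254 bp from a start site of Ppm1h, a phosphatase gene, and ranked 5 in the Nr5a2 list. The third lay 260 bp from the start of Nr0b2, which encodes the corepressor SHP and is a known NR5A2 target in liver, and ranked 23. The 8 single-library sequences stand for strong peaks with a match. The counts over all summits, given below with their flanks, show how common matches were.

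Merging 108012 Nr5a2 and 58146 Sox2 peaks on placed chromosomes gave 153471 regions, of which 12267 were shared (7.99%, 7.86 to 8.13), 95512 were Nr5a2 only (62.2%) and 45692 were Sox2 only (29.8%). The shared regions took up 11.6% of Nr5a2 peaks (11.4 to 11.8) and 21.4% of Sox2 peaks (21.1 to 21.8). Expressed as shared over all regions, the index of 0.0799 was the lowest of the 28 pairs of libraries, and the next lowest was Nr5a2 with Oct4, at 0.0932. The pair was chosen as the least alike of the native lists, so its low place is a description. Among the 20000 highest-scoring peaks of each list, 1430 of 38565 regions were shared (3.71%), holding 7.15% of the Nr5a2 and 7.18% of the Sox2 peaks. When the top 20000 of one list were instead looked up in the whole of the other, 20.8% of the Nr5a2 peaks and 22.8% of the Sox2 peaks had a partner, so most partners of strong peaks lay below the top 20000 of the other list.

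The score of a peak, 10 times the negative log10 of its p-value, bore differently on sharing in the 2 lists. In the decile of highest Nr5a2 scores 23.9% of peaks were shared (23.1 to 24.7), against 7.33% (6.85 to 7.84) in the lowest decile. In Sox2 the top decile stood at 25.2% (24.1 to 26.4) and the lowest at 19.2% (18.2 to 20.3), a far narrower span. Strong peaks were also wider, with a median of 1315 bp in the top 20000 of Nr5a2 against 803 bp over all its peaks. In Sox2 these medians were 1139 and 831 bp. A wider peak meets the rule of 1 bp overlap more easily, and the part of width was not tested. Within the 12267 shared regions the scores of the 2 libraries were almost unrelated, with a Spearman rho of -0.04 across regions, which share base composition and openness and are not independent. The median score of Nr5a2 peaks was 187 in shared regions and 120 in Nr5a2 only regions, and that of Sox2 peaks was 137 and 129. Scores depend on depth. Per the study's reporting summary, native Sox2 had more uniquely mapped read pairs than native Nr5a2 although its list was shorter, and the part of depth in these counts was not tested.

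**Figure D1:**
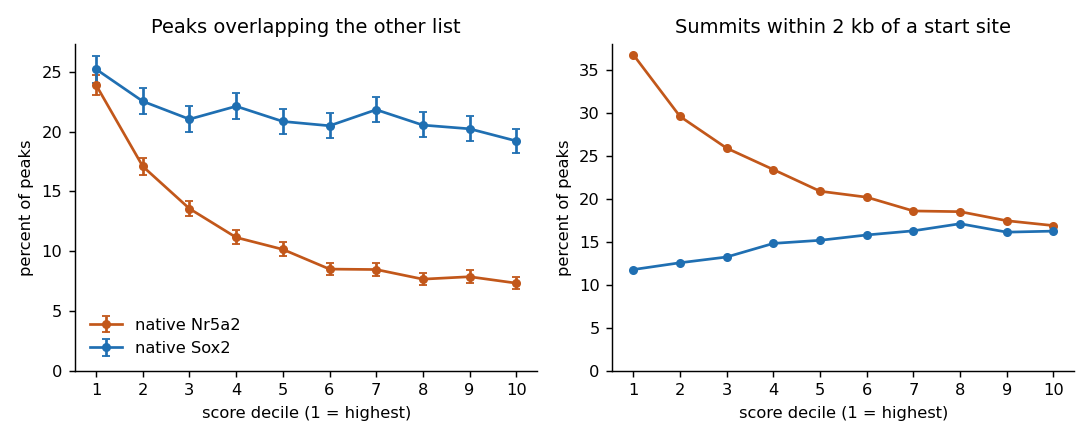
Left, percent of peaks of each native list that overlap the other list, by decile of score from highest (1) to lowest (10), with exact 95% intervals. Right, percent of summits within 2 kb of a transcript start in the same deciles. Sharing in Nr5a2 spans 23.9% to 7.33% while Sox2 stays between 25.2% and 19.2%, and the promoter share is 36.8% in the top Nr5a2 decile but 11.8% in the top Sox2 decile.

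The classes lay at different distances from genes. A summit within 2 kb of an annotated transcript start was called a promoter summit. In shared regions 34.8% of the Nr5a2 summits (34.0 to 35.6) and 35.1% of the Sox2 summits (34.2 to 35.9) were promoter summits. The share was 21.3% (21.0 to 21.5) in the Nr5a2 only class and 9.43% (9.16 to 9.70) in the Sox2 only class. The contrast was wider close to the start, where 25.7% of shared, 10.6% of Nr5a2 only and 2.79% of Sox2 only summits lay within 500 bp. The median distance to the nearest start was 6.61 kb for shared, 8.97 kb for Nr5a2 only and 18.1 kb for Sox2 only summits. At the far end, 9.12% of Sox2 only summits lay over 100 kb from any start, against 3.35% of Nr5a2 only summits and 3.19% of shared ones. Away from promoters, introns held 43.8% of Sox2 only and 40.8% of Nr5a2 only summits, and intergenic DNA held 44.2% and 34.0%.

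**Figure D2:**
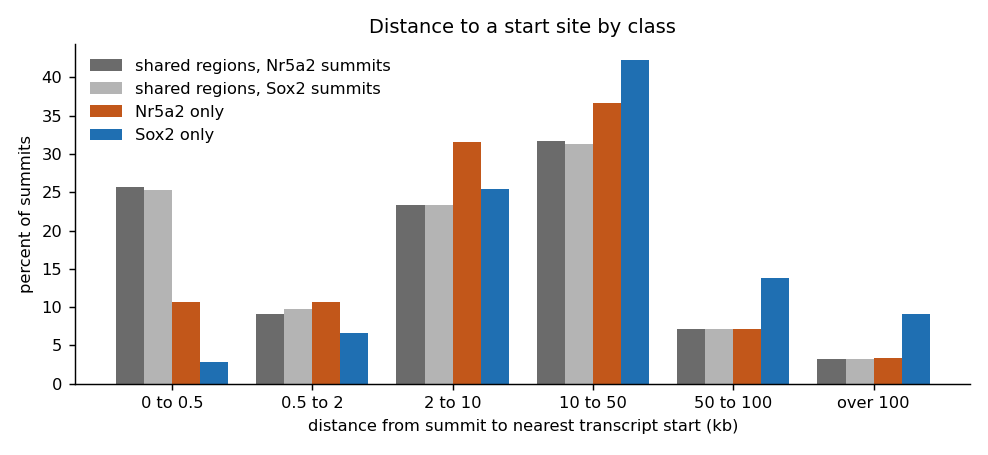
Percent of summits of each class in 6 bins of distance to the nearest annotated transcript start, in kb. Shared regions stand highest in the first bin (25.7% of Nr5a2 summits), Nr5a2 only summits hold 10.6% there and Sox2 only summits 2.79%, and the order is turned around in the bins beyond 10 kb, where Sox2 only is highest.

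Peak strength went with promoters in opposite ways in the 2 libraries. In Nr5a2 the promoter share was 36.8% in the top score decile and 16.9% in the lowest. In Sox2 it was 11.8% in the top decile and 16.3% in the lowest. Among the top 20000 peaks 44.1% of shared, 32.8% of Nr5a2 only and 10.4% of Sox2 only summits were at promoters, so that Sox2 only lay further from the other classes than over all peaks. Base composition set the Sox2 only class apart as well. The median G+C content within 250 bp of the summit was 47.9% in Nr5a2 only and 40.7% in Sox2 only regions, and in shared regions it was 47.9% at the Nr5a2 and 46.1% at the Sox2 summits. Windows of at least 60% G+C, typical of CpG islands, made up 15.8% of shared Nr5a2 summits, 5.35% of Nr5a2 only summits and 0.107% of Sox2 only summits (49 of 45692). Base composition also affects how DNA is cut and amplified, and its part in the difference between the libraries was not tested. Summits on bases marked as repeats were 9.02% of shared, 13.3% of Nr5a2 only and 12.3% of Sox2 only summits.

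Each factor's own consensus was enriched at its own summits and not at the other's. Within 50 bp of the summit, 11.5% of Nr5a2 only summits held an NR5A match against 1.18% of equal windows centred 500 bp to either side, a ratio of 9.75 (9.32 to 10.2). At Sox2 only summits NR5A matches were scarcer than in the flanks, 0.300% against 0.715%, a ratio of 0.42 (0.349 to 0.504). The SOX consensus was at 2.02% of Sox2 only summits against 0.456% of flanks, a ratio of 4.43 (3.95 to 4.97), and at 0.251% of Nr5a2 only summits against 0.348%, a ratio of 0.72 (0.623 to 0.837). Most summits of either class thus held neither consensus in these windows.

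Shared regions held both consensus sequences, but at different summits. Of the Nr5a2 summits in shared regions, 6.82% had an NR5A match (ratio 6.63, 5.77 to 7.62) and 0.416% a SOX match (ratio 1.02, 0.730 to 1.42). Of the Sox2 summits in the same regions, 0.964% had NR5A (ratio 0.67, 0.544 to 0.822) and 1.44% had SOX (ratio 3.58, 2.80 to 4.57). Both ratios for the library's own consensus were below those of its single-library class, with intervals that did not overlap for NR5A and did overlap for SOX. NR5A matches were also more frequent away from promoters. They were at 8.11% of distal and 4.39% of promoter Nr5a2 summits in shared regions, and at 12.1% and 9.34% in the Nr5a2 only class.

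AP-1, whose members FOS and JUN act downstream of growth factor signals, was enriched in all classes. The AP-1 consensus was at 8.93% of Nr5a2 and 9.93% of Sox2 summits in shared regions, with ratios to the flanks of 3.94 and 5.28. In the Sox2 only class it was at 8.31% (ratio 5.24), and in the Nr5a2 only class at 5.70% (ratio 3.29). TEAD proteins, the DNA-binding partners of YAP, have the consensus CATTCCA or CATTCCT, which was at 8.95% of Sox2 only summits (ratio 2.34) and 5.30% of Nr5a2 only summits (ratio 1.44). The RUNX consensus AACCACA was at 5.14% of Sox2 only summits (ratio 2.20) and at 2.20% of Nr5a2 only summits, where the ratio was 0.93. The octamer ATGCAAAT, bound by Oct4, was below its flank level in both single-library classes, at ratios of 0.65 for Nr5a2 only and 0.79 for Sox2 only. CTCF, an architectural protein of chromatin loops, had its consensus at 0.404% of Nr5a2 only and 0.0547% of Sox2 only summits, against 0.0848% and 0.0274% of flanks.

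**Figure D3:**
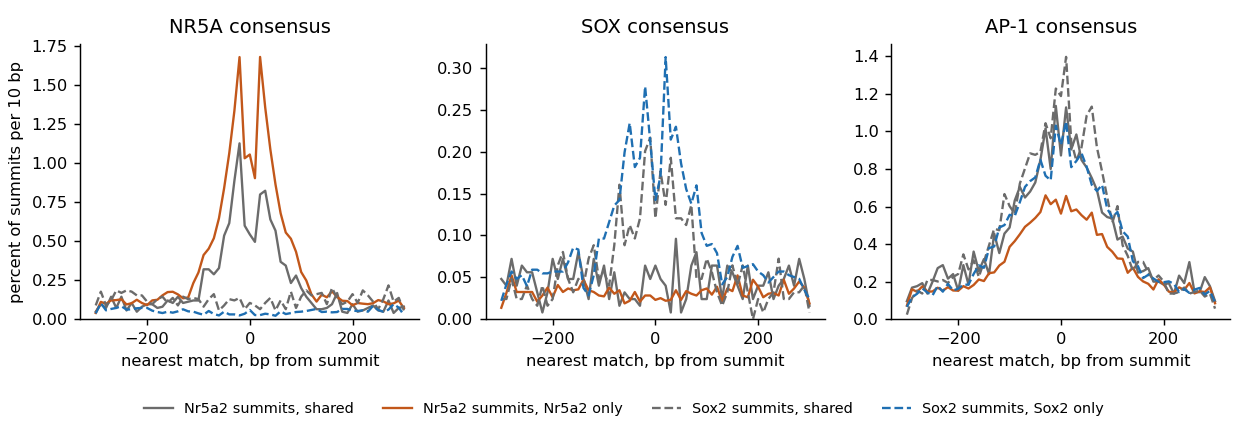
Position of the nearest match to the NR5A, SOX and AP-1 consensus relative to the summit, as percent of summits per 10 bp, for the 2 libraries (solid, Nr5a2 summits; dashed, Sox2 summits) and their classes. NR5A matches are centred on Nr5a2 summits only and SOX matches on Sox2 summits only, with the shared class below the single-library class in both, and AP-1 matches are centred on all 4.

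Matches sat close to the summit of the matching factor. Counting the nearest match within 200 bp, NR5A lay a median of 41 bp (40.0 to 44) from Nr5a2 summits in shared regions and 112 bp (104 to 117) from Sox2 summits there. For SOX the medians were 110 bp (102 to 121) from the Nr5a2 and 57 bp (51 to 66) from the Sox2 summits. AP-1 lay 62 bp from both. The score told opposite things of the 2 consensus sequences. NR5A matches were at 8.97% of summits in the top decile of Nr5a2 scores and 12% in the lowest, with flank levels of 1.55% and 0.968%. SOX matches were at 2.13% of summits in the top decile of Sox2 scores and 1.43% in the lowest, with flank levels of 0.421% and 0.482%. The strongest Nr5a2 peaks were thus poorer in the NR5A consensus than the weakest, and richer in promoters.

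Within a shared region the 2 summits were often not at the same place. The median distance between the nearest summits of the 2 libraries was 177 bp (170 to 183, n = 12267), with quartiles of 59 and 478 bp. Summits were within 25 bp of each other in 13.1% of shared regions, within 100 bp in 36.3% and within 200 bp in 53%. The distance was shorter at promoters, with a median of 124 bp (n = 4273), than at distal regions, with 210 bp (n = 7994). Among shared regions of the top 20000 peaks, whose peaks are wider, the median was 200.5 bp (182 to 225).

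The spacing varied with which summit held which consensus. Where the Nr5a2 summit had an NR5A match, the Sox2 summit lay a median of 370.5 bp away (334 to 406, n = 828), and 18.2% of these pairs were within 100 bp. Where the Sox2 summit had a SOX match, the Nr5a2 summit lay 304 bp away (221 to 385, n = 177), with 23.7% within 100 bp. With an AP-1 match at the Nr5a2 summit the median was 90.0 bp (81 to 99, n = 1105), and with one at the Sox2 summit 118 bp (107 to 132, n = 1221). Regions without any of the 3 at either summit had a median of 174 bp (167 to 180, n = 9456). In the 120 regions where the Sox2 summit itself held an NR5A match the median was 41 bp (33 to 59), and in the 52 where the Nr5a2 summit held a SOX match it was 87 bp, with a wide interval of 48 to 288 bp. A factor's own consensus at its own summit thus went with distant summits, and AP-1 at either summit or NR5A at the Sox2 summit with close ones. The last is partly set by the choice of regions. NR5A matches lie near Nr5a2 summits, so picking Sox2 summits by an NR5A match within 50 bp favours close pairs. The interval for SOX at the Nr5a2 summit covered the median of regions without a match.

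**Figure D4:**
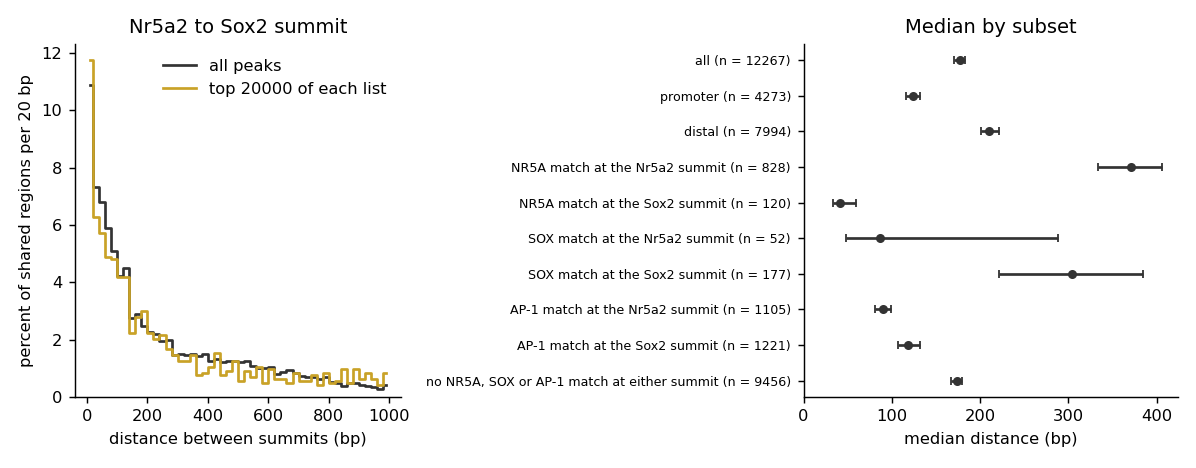
Left, distance between the nearest Nr5a2 and Sox2 summits in shared regions, as percent of regions per 20 bp, for all peaks and for the top 20000 of each list. Right, median distance with its 95% interval for subsets by location and by consensus match within 50 bp of a summit. The subset with an NR5A match at the Nr5a2 summit lies highest (370.5 bp) and that with NR5A at the Sox2 summit lowest (41 bp).

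Single-library regions overlap no peak of the other list by definition, which limits how near its summits can be. From an Nr5a2 only summit the nearest Sox2 summit lay a median of 15.1 kb away, 1.01% had one within 1 kb and 19.6% within 5 kb. From a Sox2 only summit the nearest summit of the longer Nr5a2 list lay a median of 9.64 kb away, 1.90% had one within 1 kb and 32.0% within 5 kb.

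The classes were then looked up in the 6 libraries that did not define them. Of the Nr5a2 only regions 57.8% had a peak in Nr5a2BiD and 16.5% in Sox2BiD, and of the Sox2 only regions 84.1% had a peak in Sox2BiD and 3.72% in Nr5a2BiD. Shared regions were found in both fusions, 83.6% in Nr5a2BiD and 94.7% in Sox2BiD. They also recurred with the other factors, 69.5% in native Nanog and 44.3% in native Oct4, where Nr5a2 only regions stood at 16.8% and 9.13% and Sox2 only regions at 29.3% and 13.3%. All 6 other libraries had a peak in 33.7% of shared, 3.25% of Nr5a2 only and 0.720% of Sox2 only regions, and none of the 6 had one in 0.636%, 31.9% and 11.8%. No control library is named, so sites open or cut in every library cannot be told apart from binding of each factor. In the top 20000 the other factor's fusion had a peak in 37.1% of Nr5a2 only and 16.4% of Sox2 only regions, and the factor's own fusion in 97.2% and 96.6%. These classes compare only the top 20000 of each list, and 14.7% of their Nr5a2 only regions had a peak in the full native Sox2 list and 16.8% of their Sox2 only regions one in the full native Nr5a2 list, which by definition is 0% for the classes over all peaks.

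The highest-scoring regions of each class differed in their place relative to genes. Before ranking, summits on coding exons of the delivered factors were left out, since retroviral copies carry that sequence. These were 3 Nr5a2 summits on Nr5a2 exons (best rank 32) and 1 Sox2 summit on the Sox2 exon (rank 14), and neither library had one on the other's gene, on Nanog or on Pou5f1. Of the 8 strongest Nr5a2 only regions, the first (chromosome 7, 97420334 to 97421679, score 1494) lay 3.17 kb from Thrsp, which encodes a lipogenic protein of liver and fat. The next were 0.655 kb from the start of Comtd1, at a start site of Ppm1h, in an intron of Ash2l, which encodes a subunit of histone H3K4 methyltransferases, 0.556 kb from the start of the potassium channel partner gene Kcnip4, at the pseudogene Zfp520-ps, 0.189 kb from Pm20d2, and 167 kb from Cited2, a transcriptional co-regulator. Of these 8, 5 were at promoters and all 8 had a peak in Nr5a2BiD, 2 also in Sox2BiD.

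Of the 8 strongest Sox2 only regions 1 was at a promoter, that of the noncoding Gm46349. The first (chromosome 17, 75936108 to 75937911, score 1356) lay 385 kb from the nearest protein-coding start, Fam98a. Others were 164 kb from Foxd3, a neural crest and pluripotency factor, 202 kb from Tbx18, a mesenchymal T-box factor, within Prdm9, the gene of the factor that places meiotic crossovers, and in introns of Pter and the kinesin gene Kif1b. All 8 had a peak in Sox2BiD and in native Nanog, and 0 of 8 in Nr5a2BiD. The strongest Sox2 only promoter summit at a protein-coding gene was 195 bp from a start site of Sox6 (rank 110), an HMG-box gene of cartilage and muscle.

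Shared regions were ordered by the worse of their ranks in the 2 lists. The first lay in an intron of Psd3 (ranks 186 in Nr5a2 and 386 in Sox2, summits 159 bp apart). The second covered the noncoding Gm26917 on chromosome 17, with a peak from 39842992 to 39848903 in Nr5a2 and summits 684 bp apart. Its Sox2 peak had nearly the same ends, 39842919 and 39848885. The G+C content around its summits was 62.7% (Nr5a2) and 69.3% (Sox2). Whether the signal at Gm26917 reflects binding of either factor was not tested. Others were at Tomm40, an import pore gene of mitochondria (265 bp apart), at the dynein light chain gene Dynlt1b (340 bp), in introns of Rgs6 (233 bp) and Scrn1 (48 bp), 23.2 kb from Spdl1 (129 bp) and 42.6 kb from 1700056E22Rik (11 bp). All 8 had a peak in both Nr5a2BiD and Sox2BiD and in both Nanog libraries. The regions at Psd3, Gm26917, Tomm40 and Dynlt1b and near 1700056E22Rik had a peak in every library of the series. Those near Spdl1 and in Rgs6 and Scrn1 had none in Oct4BiD. With no control library named, sites found in every library cannot be told apart from binding of each factor.

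At the level of genes, Nr5a2 reached far more promoters. Of 21938 protein-coding genes in the GENCODE M21 annotation, 4931 (22.5%) had a promoter summit of both libraries, 8989 (41.0%) of Nr5a2 only, 589 (2.68%) of Sox2 only and 7429 (33.9%) of neither. Among the top 20000 peaks of each list the counts were 951, 5161, 767 and 15059. Both summits at a gene need not lie in 1 region, so a gene with both can have an Nr5a2 only and a Sox2 only peak. Gene lists of known roles were set against these shares, as counts without a test.

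**Figure D5:**
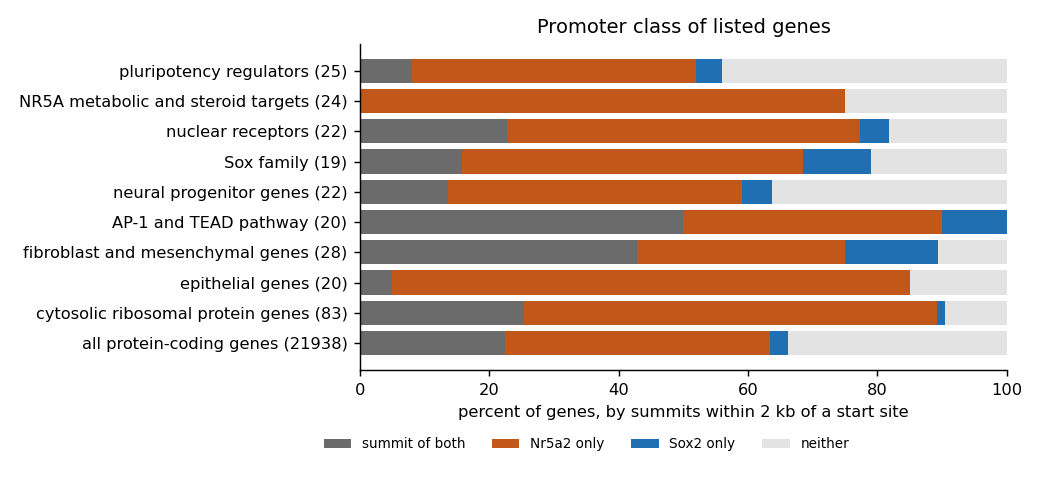
Percent of the genes of each list, and of all protein-coding genes, with a summit within 2 kb of a start site in both native libraries, in Nr5a2 only, in Sox2 only or in neither; the number of genes is in brackets. NR5A metabolic targets (75%) and epithelial genes (80.0%) have the largest Nr5a2 only shares beside 41.0% over all genes, and AP-1 and TEAD genes (10 of 20) and fibroblast genes (42.9%) the largest shares with both beside 22.5%.

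Known NR5A targets of metabolism and steroid synthesis had Nr5a2 summits alone. Of 24 such genes 18 had a promoter summit of Nr5a2 only (75%, beside 41.0% over all genes), 6 had neither, and 0 had a Sox2 summit. Nr0b2 had the highest, with a score of 1234 at 260 bp from the start. Abcg5 and Abcg8, the divergent pair of sterol exporters, shared a peak of score 575 at 880 and 1004 bp. Scarb1, the HDL receptor, had 7 promoter summits with a best score of 438. Star, the cholesterol carrier of steroid synthesis, had a score of 352 at 222 bp, and Cyp19a1, the aromatase gene, 342 at 478 bp. These 6 of the 24 genes kept a promoter summit in the top 20000. That share was near the 23.5% of all genes with Nr5a2 only there. The larger share over all peaks thus came with peaks below the top 20000. Weaker peaks were at Cyp8b1 (score 91.7), Apoa4 (78.7) and Akr1b7 (76.2), where the lowest score a list can hold is 50. Cyp7a1, the rate-limiting enzyme of bile acid synthesis, Cyp11a1, Hnf4a, Hsd3b1, Apom and Slc10a1 had neither. At the 18 genes with a summit, the highest-scoring one held no NR5A match within 50 bp. Of Nr5a2 only promoter summits as a whole, 9.34% held one. Within 100 kb of the 24 gene starts there were 447 Nr5a2 only and 68 Sox2 only summits, a ratio of 6.57, beside 4.18 over all protein-coding genes.

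Of 20 epithelial genes 16 had a promoter summit of Nr5a2 only (80.0%, beside 41.0% over all genes) and 1 of both (5.0%, beside 22.5%). A further 3 had neither (15.0%, beside 33.9%) and 0 had Sox2 only (beside 2.68%). In the top 20000, 4 of the 20 had Nr5a2 only, beside 23.5% of all genes, so no excess was seen among the strongest peaks. There 1 had Sox2 only, beside 3.5% of all genes. Cldn7, a tight junction claudin, had the highest Nr5a2 score, 682 at 369 bp, followed by the keratin gene Krt8 (442), the splicing factor gene Esrp1 (375) and the polarity gene Crb3 (348). Cdh1, the gene of E-cadherin, had a score of 281 at 1459 bp, and Epcam 155 at 1387 bp. Grhl2, which encodes an epithelial transcription factor, was the gene with both, and there the Sox2 summit was the stronger in rank, 4097 (score 462, 283 bp) against 69152 for Nr5a2 (92.9). These summits lay in separate regions. The ratio of Nr5a2 only to Sox2 only summits within 100 kb was 8.92, the highest of the lists.

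Of 25 pluripotency genes, 11 had Nr5a2 only (44%, beside 41.0% over all genes), 2 had both (8.0%, beside 22.5%), 1 had Sox2 only (4.0%, beside 2.68%) and 11 had neither (44%, beside 33.9%). The 11 with Nr5a2 only were Utf1 (score 281), Klf5 (245), Tfcp2l1 (193), Klf2 (160), Sall4 (160), Prdm14 (124), Nr0b1 (100.97), Tdgf1 (81.5), Dppa2 (73.9), Tdh (55.9) and Nr5a2 itself (1199). At Nr5a2 the strongest summit, and at Sox2 the only one, was among the summits on coding exons left out above, so native binding there cannot be told apart from the delivered copy. Among the top 20000 peaks 1 of the 25 genes had Nr5a2 only, beside 23.5% of all genes, and this was Nr5a2 itself. Likewise 1 had Sox2 only, Sox2 itself, beside 3.5%. Tbx3 alone had both, beside 4.33%, and 22 had neither, beside 68.6%. Klf4 had both in a shared region, 310 bp (Nr5a2, score 167) and 191 bp (Sox2, score 89.8) from its start. Tbx3, a naive state regulator, had both as well, with Nr5a2 at 331 and Sox2 at 205, 3 bp from a start site. That Sox2 summit lay in a shared region, while the Nr5a2 summit of score 331 lay in a separate, Nr5a2 only region. Pou5f1, Nanog, Esrrb, Dppa3, Dppa4, Dppa5a, Fgf4, Gdf3, Lin28a, Zfp42 and Zscan10 had neither at their promoters. Around Esrrb there were 16 Nr5a2 only and 1 Sox2 only summits within 100 kb, around Lin28a 19 and 0, around Nanog 8 and 2 with 3 shared, and around Zfp42 1 and 4.

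In the nuclear receptor family, 12 of 22 genes had Nr5a2 only (54.5%, beside 41.0% over all genes) and 5 had both (22.7%, beside 22.5%). A further 1 had Sox2 only (4.55%, beside 2.68%) and 4 had neither (18.2%, beside 33.9%). Among the top 20000 peaks 10 of the 22 had Nr5a2 only, beside 23.5% of all genes, and 10 had neither, beside 68.6%. There 1 had both, beside 4.33%, and 1 had Sox2 only, beside 3.5%. Nr1d2, a circadian repressor, had both among the top peaks, with scores of 864 for Nr5a2 and 322 for Sox2. Its relative Nr1d1 was the gene with a Sox2 summit only, of score 564 at 157 bp. That summit lay in a shared region, and the region's Nr5a2 summit was more than 2 kb from a start site of Nr1d1. Thra, the adjoining thyroid receptor gene, had an Nr5a2 summit only, of score 811 at 1400 bp. Esrra, a receptor with a half-site like that of NR5A2, had both (700 and 168). Pparg, the regulator of fat cell differentiation, had neither at its promoter. It had more Sox2 only (12) than Nr5a2 only (5) summits within 100 kb, and so had Rarb (4 and 0).

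In the Sox family, 10 of 19 genes had Nr5a2 only (52.6%, beside 41.0% over all genes), 3 had both (15.8%, beside 22.5%), 2 had Sox2 only (10.5%, beside 2.68%, 1 of them Sox2 itself) and 4 had neither (21.1%, beside 33.9%). Sox30 (score 783), Sox1 (516), Sox10 (469) and Sox5 (458) had strong Nr5a2 summits and no Sox2 summit, and the Sox30 summit held an NR5A match. Sox6 had both, but in separate regions, with a Sox2 summit of score 995 and an Nr5a2 summit of score 97.3. Besides Sox2 itself, Sox21 was the gene with a Sox2 summit only, of score 81.4. Among the top 20000 peaks 6 of the 19 had Nr5a2 only, beside 23.5% of all genes. There 2 had Sox2 only, beside 3.5%, 11 had neither, beside 68.6%, and 0 had both, beside 4.33%. Among neural progenitor genes, 10 of 22 had Nr5a2 only over all peaks (45.5%, beside 41.0% over all genes) and 3 had both (13.6%, beside 22.5%). A further 1 had Sox2 only (4.55%, beside 2.68%) and 8 had neither (36.4%, beside 33.9%). The shares of Nr5a2 only and neither were near those of all genes over all peaks, but not in the top 20000. There 0 of the 22 had Nr5a2 only, beside 23.5% of all genes, and 21 had neither, beside 68.6%. The gene with Sox2 only was Fabp7, a radial glia gene (score 213, 242 bp). Hes1, Meis1 and Zic1 had both, at Meis1 and Zic1 in separate regions. Gli3 and Meis2 were surrounded by 10 and 8 Sox2 only against 9 and 7 Nr5a2 only summits, and over the list the ratio of Nr5a2 only to Sox2 only summits within 100 kb was 3.04, beside 4.18 over all genes.

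Over all peaks, AP-1 and TEAD pathway genes often had promoter summits of both factors. Of the 20 genes found, 10 had both (beside 22.5% over all genes) and 8 had Nr5a2 only (beside 41.0%). A further 2 had Sox2 only (beside 2.68%) and 0 had neither (beside 33.9%). In the top 20000, 1 of the 20 had both, beside 4.33% of all genes, and 5 had Nr5a2 only, beside 23.5%. There 1 had Sox2 only, beside 3.5%, and 13 had neither, beside 68.6%. The larger share with both was thus not seen among the strongest peaks. Jun had both among the top peaks, with scores of 706 and 221. Wwtr1, the gene of the YAP relative TAZ, had 550 and 147, Fosl2 had 353 and 162, and Ccn2, a YAP and TEAD target, had 708 and 78.2. Ccn1 and Jund had a Sox2 promoter summit only, though in both cases in a shared region. Around Ccn1 lay 8 shared summits of each library within 100 kb, against a median of 1 over all genes.

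Of 28 fibroblast genes, 12 had both (42.9%, beside 22.5% over all genes) and 9 had Nr5a2 only (32.1%, beside 41.0%). A further 4 had Sox2 only (14.3%, beside 2.68%) and 3 had neither (10.7%, beside 33.9%). Among the top 20000 peaks 2 of the 28 had both, beside 4.33% of all genes, and 6 had Nr5a2 only, beside 23.5%. There 3 had Sox2 only, beside 3.5%, and 17 had neither, beside 68.6%. Over all peaks, those with both included Vim (Nr5a2 439, Sox2 309), Col1a2 (286 and 318, in separate regions), Col3a1 (73.1 and 91.0), Fn1 (67.6 and 187), Fbn1 (239 and 71.2) and Twist1 (456 and 138). Those with Sox2 only included Acta2, smooth muscle actin (score 444, 54 bp), Dcn, decorin (185, 355 bp), and S100a4 (69.5). Snai1 (528), Twist2 (480) and Col1a1 (322) had Nr5a2 only. Within 100 kb the ratio of Nr5a2 only to Sox2 only summits was 2.75, the lowest of the lists, and it was turned around at Fn1 (6 and 10), Col1a2 (6 and 12), Col3a1 (5 and 7) and Dcn (1 and 7). These lists differ in how many of their genes fibroblasts express and in the base composition of their promoters, and the part of either was not tested.

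Genes with the most summits of a class as their nearest gene within 100 kb were counted last. For the Nr5a2 only class these were Nectin1, a cell adhesion gene, with 26 summits, Fndc3b with 25, and Mapt, Pja1, Plxna1 and Stk24 with 24 each. They had 0 or 1 shared and 1 to 6 Sox2 only summits. For the Sox2 only class they were Pdlim5 with 16, Adgrg6 with 15, Sipa1l1 and Spats2l with 14, and Cdh11, a mesenchymal cadherin, and Pdzrn3 with 13. These had 4 to 11 Nr5a2 only summits each, so they were not free of Nr5a2. For the shared class they were Map4k3 with 10, Cald1, Camk2d, Ccn1 and Gm17571 with 8 and 1700056E22Rik with 7. Cald1 encodes caldesmon, an actin-binding protein of contractile cells. These counts go up with the length of DNA assigned to a gene and were not scaled to it.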

How the data were processed

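Flag CUT&Tag libraries of native Nr5a2 and native Sox2 were compared, 1 each, with 6 others used for lookup. The submitters' processing notes list Trim Galore 0.6.4 (adapter trimming), Bowtie2 2.4.5 (alignment, mm10), SAMtools 1.16.1 and MACS 1.4.2. Per the methods, the authors discarded reads that were repetitive, poorly mapped or mitochondrial, and MACS ran without its model, allowing a single tag at each position. No control library is named. The methods say that replicates were merged, and the reporting summary that the experiment was done once. Kit and cell number differ between the labels and the methods.

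Scores are as deposited and equal the peak caller's negative log10 p-value times 10, with a lowest value of 50. The deposited summit signal is the number of tags at the highest point, not scaled to depth. Scores were used to rank within a list. Depth is not in the files.

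Coordinates are 1-based mm10. Unplaced peaks (18 in Nr5a2, 16 in Sox2) were left out. Peaks were merged at 1 bp overlap. Start sites came from GENCODE M21. Consensus matches were counted within 50 bp of summits and in 2 windows centred 500 bp away. Intervals are exact (Clopper-Pearson) for shares, by order statistics for medians and on the log scale of counts for ratios. Scripts were tested on simulated peaks and used Python 3.11.15, NumPy 2.4.6, pandas 2.3.3, SciPy 1.17.1 and matplotlib 3.10.9.

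Named genes follow a rule: genes of 8 lists and the ribosomal protein genes, the 8 highest regions, 5 highest promoter summits and 6 genes with the most summits of each class. Members and lists were chosen with earlier results of these data known. Alternatives covered the overlap rule, score limits, promoter distance, window size and stricter classes.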

Additional observations from a re-analysis of the deposited data

How the results depend on the processing

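With 1 library per group no replicate could be left out. No paired analysis was possible because each group holds 1 library and the result comes from no test. Counting intervals are narrow, so of 58 alternative values 14 lay inside the interval of the reported value and 44 outside. None turned the order of the 3 classes in promoter share.

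Shared regions were 3.71% in the top 20000, 1.18% in the top 5000 and 6.14% at scores of at least 100. Shared Nr5a2 peaks were 7.15%, 2.34% and 9.10% in these, 10.2% when the overlap covered at least 0.5 of the shorter peak and 4.12% with summits within 100 bp. Shared Sox2 peaks were 7.18%, 2.34%, 16.2%, 19.0% and 7.66%. Neither pairing rule gave a share of regions.

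Promoter shares of shared, Nr5a2 only and Sox2 only summits were 23.7%, 9.6% and 1.83% with 1 protein-coding start per gene, 25.7%, 10.6% and 2.79% within 500 bp, 45.4%, 35.9% and 20.9% within 5 kb, and 44.1%, 32.8% and 10.4% in the top 20000. Without regions that have a peak in Sox2BiD, Nr5a2 only stood at 17.7%. The median spacing was 200.5 bp in the top 20000.

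The NR5A ratio of Nr5a2 only summits was 7.17 with windows of 100 bp, 6.58 in the top 20000 and 10.3 without Sox2BiD regions, and the SOX ratio of Sox2 only summits was 3.80 with windows of 100 bp. In the top 20000, Nr5a2BiD had a peak in 99.5% of shared, 97.2% of Nr5a2 only and 16.4% of Sox2 only regions, and Sox2BiD in 99.8%, 37.1% and 96.6%. Genes with promoter summits of both were 14.4% within 500 bp, 31.8% within 5 kb and 4.33% in the top 20000. Nr5a2 only genes were 33.9% within 500 bp and 23.5% in the top 20000, and Sox2 only genes 3.22% within 5 kb and 3.5% in the top 20000. Apart from what each setting removes by its construction, the cause was not tested.

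Depth limits the single-library classes: the lists give no reads below a score of 50, so a region without a peak is not shown to be unbound.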

Other observations

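Among 83 cytosolic ribosomal protein genes, 53 had a promoter summit of Nr5a2 only (63.9%, beside 41.0% over all protein-coding genes). Another 21 had both (25.3%, beside 22.5%), 1 had Sox2 only (1.20%, beside 2.68%) and 8 had neither (9.64%, beside 33.9%). In the top 20000, 20 of the 83 had Nr5a2 only, beside 23.5% of all genes. The X chromosome held 3.37% of Sox2 only regions, 2.01% of Nr5a2 only regions and 1.79% of shared regions, and chromosome 11, which is rich in genes, held 4.63%, 6.79% and 6.19%.

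Nr5a2 only regions differed within the class by their presence in the fusion libraries. Those with a peak in Sox2BiD had 39.3% of summits at promoters (n = 15777) and NR5A matches at 7.75%, against 17.7% (n = 79735) and 12.3% for those without. Those with a peak in Nr5a2BiD had a median score of 182, and NR5A matches at 10.4% of summits. Those without had a median score of 79.4, and NR5A matches at 13.0%. Sox2 only regions with a peak in Sox2BiD had SOX matches at 2.29% and AP-1 matches at 9.12% of summits, against 0.621% and 4.01% for those without, whose median score was 79.7 against 145.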
